A study of Rattus norvegicus with 56 samples.

Results

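Trpv4, Piezo1, Pkd1, Pkd2, Pkhd1, Trpm4, Trpm7 and Panx1 encode channels and receptors linked to the sensing of stretch, pressure and flow by kidney tubule cells. They were matched by symbol among the 32883 genes listed at 30 min and followed at 3 h by their Ensembl identifiers. A row carried the symbol for 7 of the 8 genes. Pkhd1, which encodes the ciliary protein fibrocystin, was not analysed here.

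The tubules came from male Sprague-Dawley rats of 120 to 160 g. In the unilateral ureteral obstruction (UUO) group the left ureter was tied with silk close to the renal pelvis, and in the sham group the operation was the same but the ureter was not tied. Cortical collecting ducts (CCD) and cortical thick ascending limbs (cTAL) were microdissected 30 min or 3 h later, with 4 numbered replicates for each segment, time and operation. Each number had 2 libraries in CCD and 1 in cTAL, which gives 48 libraries, 24 at each time, and the 8 whole-kidney samples of the series were not analysed here. All groups were rats of 1 strain with no transgene or deletion named. The labels do not say that the numbers are separate animals, so the p-values measure the spread between these samples, which may be partly technical. Values are TPM, a relative transcript abundance scaled for gene length and library total, so levels can be set beside each other between genes. The read depth behind them is unknown.

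Stretch or shear of a tubule cell can open cation channels of its membrane and cilium and let calcium enter. TRPV4 is a calcium-permeable channel that responds to cell swelling, flow and warmth, and in the collecting duct it carries part of the calcium signal that flow evokes. PIEZO1 opens directly when the membrane is stretched. Polycystin-1 (Pkd1), a large receptor-like protein, and polycystin-2 (Pkd2), a cation channel, form a complex in the primary cilium, and loss of function of their genes causes autosomal dominant polycystic kidney disease. TRPM4 is a sodium-conducting channel opened by intracellular calcium, TRPM7 is a channel joined to a kinase that carries magnesium and calcium, and pannexin-1 (Panx1) releases ATP, which then acts on purinergic receptors of neighbouring cells.

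Trpv4 and Trpm7 were the members that differed most in opposite directions between the segments at 30 min, and the 250 bases before their RefSeq start sites are shown for that reason. The Trpv4 window is chr12:47598938-47599187 on the plus strand of GRCr8 and the Trpm7 window is chr3:134588114-134588363 on the minus strand. Sequences are from RefSeq, read 5′ to 3′ along each gene, with capitals marking matches of the GC box GGGCGG in both windows and of the E-box CACGTG in Trpm7.
Trpv4: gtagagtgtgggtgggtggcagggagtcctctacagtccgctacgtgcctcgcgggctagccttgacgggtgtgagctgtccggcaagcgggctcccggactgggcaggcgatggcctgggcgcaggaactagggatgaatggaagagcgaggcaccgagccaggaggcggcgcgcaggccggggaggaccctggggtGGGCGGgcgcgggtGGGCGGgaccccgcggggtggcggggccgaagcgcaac
Trpm7: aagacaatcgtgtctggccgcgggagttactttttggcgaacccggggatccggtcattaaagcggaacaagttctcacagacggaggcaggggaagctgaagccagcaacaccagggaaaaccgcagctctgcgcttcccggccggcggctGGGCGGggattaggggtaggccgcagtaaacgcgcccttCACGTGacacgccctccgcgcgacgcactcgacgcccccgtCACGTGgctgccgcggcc
The Trpv4 window held 2 GC boxes, with first bases at -52 and -38, and no E-box. The Trpm7 window held 1 GC box at -98 and E-boxes at -59 and -18. Of 33469 promoters of the same length, 30.5% held a GC box and 5.59% an E-box on one or the other strand. GC content was 72.8% in Trpv4 and 65.2% in Trpm7, against a median of 51.2% over all promoters. The AP-1 motif TGANTCA, the TEAD motif GGAATG, the GATA-factor motif, spelled GATAAG, and the cyclic AMP response element core TGACGT were absent from both windows, and 6.34%, 12.1%, 6.18% and 6.95% of all promoters held them, searched on both strands. These are matches of letters and not measured binding sites. A window was listed for 7 of the 8 genes, Piezo1 being the one without.

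The dissected tubules carried the markers of their labels. In sham rats all 7 principal cell and all 6 intercalated cell markers were higher in CCD than in cTAL at both times, and all 5 thick limb markers were lower. The number of genes at 1 TPM or more ran from 8744 to 11916 per library at 30 min and from 9585 to 10750 at 3 h. The lowest was library 2 of UUO number 2 in CCD at 30 min, where Trpv4 was 7.93 TPM against 65.1 TPM in library 1 of the same number. At 3 h, 3 CCD libraries held over 5000 TPM of the thick limb gene Umod, and the cTAL library of sham number 1 held 361 TPM of the principal cell water channel gene Aqp2 against 0.34 to 4.34 TPM in the other sham cTAL libraries. Some results that rest on these libraries are also given without them, but the levels and changes of Piezo1, Pkd1 and Panx1 are not.

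Trpv4 had the highest level of the 7 genes in CCD. In sham CCD at 30 min its replicates were at 68.1, 87.4, 107 and 93.5 TPM (mean 88.9 ± 16.1, SD, n = 4). Trpm4 followed at 6.66 to 11.02 TPM, Trpm7 at 6.0 to 9.31 TPM and Pkd2 at 4.47 to 7.86 TPM, and these ranges overlapped, so the order among the genes did not exceed the spread. Piezo1 was at 1.35 to 2.58 TPM, Pkd1 at 0.69 to 1.55 TPM and Panx1 at 0.53 to 1.45 TPM, again with overlapping ranges. The ranges of Trpv4 and of the Trpm4, Trpm7 and Pkd2 group did not meet, nor did those of Pkd2 and Piezo1.

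In sham cTAL at 30 min Trpv4 and Trpm7 had similar levels. Trpv4 was at 13.75, 15.8, 12.9 and 19.7 TPM (15.5 ± 3.02, n = 4) and Trpm7 at 24.8, 10.9, 12.8 and 8.37 TPM (14.2 ± 7.28, n = 4). Trpm4 lay at 4.23 to 7.84 TPM and Pkd2 at 3.23 to 4.72 TPM. Pkd1 was at 0.42 to 0.65 TPM, Piezo1 at 0.09 to 0.20 TPM and Panx1 at 0.03 to 0.14 TPM. The stretch-gated channel gene Piezo1 was thus below 1 TPM in every cTAL library of the sham group, and it was also below 1 TPM in every UUO library of cTAL at both times.

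At 3 h the order in sham CCD was Trpv4 at 88.8 to 109.5 TPM, Trpm4 at 7.60 to 10.1 TPM, Pkd2 at 1.43 to 2.21 TPM, Trpm7 at 0.62 to 1.39 TPM and Piezo1 at 0.61 to 1.33 TPM, with Panx1 and Pkd1 below 0.70 TPM. Trpm7 and Piezo1 overlapped there. In sham cTAL at 3 h Trpv4 was at 10.8 to 16.5 TPM, Trpm4 at 4.67 to 6.57 TPM, Trpm7 at 1.62 to 2.17 TPM and Pkd2 at 1.23 to 2.05 TPM. Pkd2 and Trpm7 were lower in the 3 h table than in the 30 min table in every group. The tables were made separately and the share of mitochondrially encoded transcripts per library also differed, at 13.8% to 28.5% at 30 min and 4.83% to 12.9% at 3 h, so time and table cannot be told apart and no test was made between levels of different tables.

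**Figure D1:**
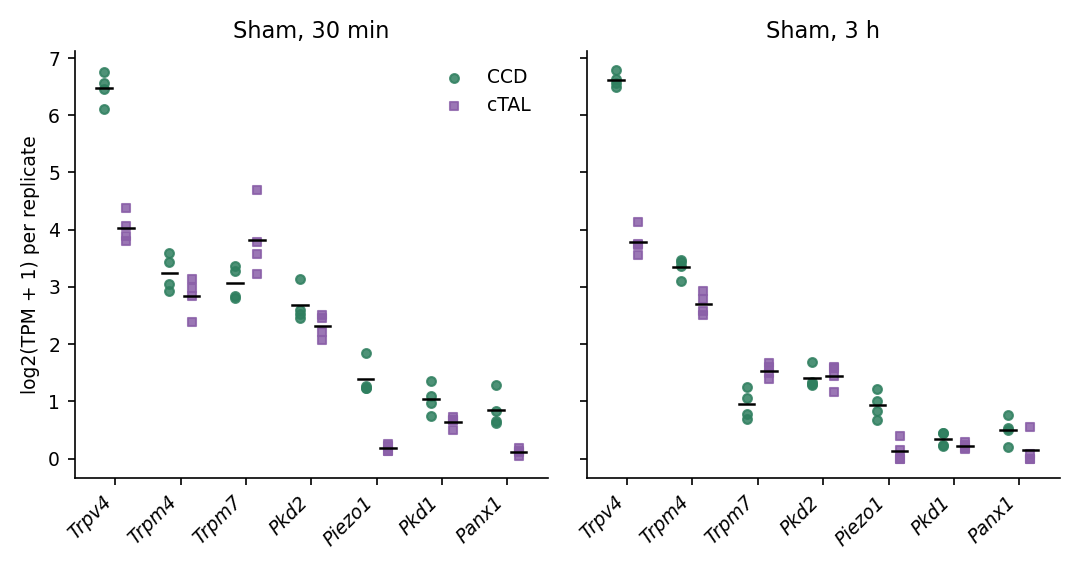
Levels of the 7 genes in sham tubules, as log2(TPM + 1), with circles for the 4 CCD replicates, squares for the 4 cTAL replicates and bars for their means, at 30 min (left) and 3 h (right). Trpv4 stands apart in CCD at both times and Trpm7 lies higher in cTAL. Piezo1, Pkd1 and Panx1 lie lowest at 30 min, at no more than 2.58 TPM in any replicate, and at 3 h Trpm7 and Piezo1 overlap in CCD.

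The first comparison asked which of these genes differ between collecting duct and thick limb in the unobstructed kidney. Trpv4 was higher in CCD at both times, by 2.43 on the log2 scale at 30 min (SE 0.15, 5.41-fold, limma adjusted p = 2.49e-05) and by 2.81 at 3 h (SE 0.13, 7.03-fold, limma adjusted p = 6.13e-05), and CCD exceeded cTAL in all 4 numbers each time. Differences were taken within each number on log2(TPM + 1), with p-values adjusted by Benjamini-Hochberg over all genes tested and a gene called at adjusted p under 0.05. A gene was tested when at least 4 of the 8 replicates reached 1 TPM. This left 5 of the 7 genes at 30 min and 4 at 3 h.

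At 30 min 3 of the 5 members tested were called, where 54.9% of 11648 genes were called, 41.7% as higher in CCD and 13.2% as lower. Piezo1 was the other member higher in CCD, at 1.35, 1.36, 2.58 and 1.40 TPM in sham CCD against 0.20, 0.09, 0.10 and 0.16 TPM in sham cTAL. It passed the filter through the CCD replicates alone, none of the cTAL replicates reaching 1 TPM, so it had to differ among the genes tested. In a fit with no filter on low values the difference was 1.201 on the log2(TPM + 1) scale (limma adjusted p = 0.00616). That scale understates changes of low genes, and with a pseudocount of 0.1 the difference was 2.85. Endothelium also uses PIEZO1, and 4 of the 5 endothelial markers tested were lower in CCD, with summed levels of 12.8 to 45.8 TPM in sham CCD and 50.9 to 116.5 TPM in sham cTAL, and their part in the Piezo1 level was not tested. Trpm7 was lower in CCD, by 0.75 (SE 0.21, 1.68-fold, limma adjusted p = 0.0185).

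The Trpm7 call at 30 min rested on the pairing of the segments and on single replicates. Without the number as a block the limma adjusted p was 0.0654. Without sham replicate 1, which held the 24.8 TPM in cTAL, it was 0.0597, and without sham replicate 3 it was 0.0805. With no filter on low values it was 0.0547. At 3 h Trpm7 was at 0.62, 1.10, 1.39 and 0.72 TPM in sham CCD and at 1.62, 2.02, 2.17 and 1.81 TPM in sham cTAL. The difference was -0.59 with a limma adjusted p of 0.0508 within numbers and 0.0391 without the block. It was also called after median-of-ratios rescaling (-0.76, limma adjusted p = 0.0251) and quantile normalization (-0.79, 0.0246). The same held with CCD library 2 alone (0.0469) and without the Umod-rich libraries (0.0456). With a pseudocount of 0.1 it was -0.996 and not called (0.0823). Nor was it called with no filter (0.0827) or on leaving out any 1 sham replicate (limma adjusted p from 0.117 to 0.136). All 7 macrophage markers were also lower in CCD at both times, with summed levels at 30 min of 217 to 436 TPM in sham CCD and 1243 to 3024 TPM in sham cTAL, and their part in the Trpm7 difference was not tested.

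At 3 h 2 of the 4 members tested were called, where 38.2% of 10521 genes were called, 27.7% as higher in CCD and 10.4% as lower. Besides Trpv4 this was Trpm4, the calcium-activated sodium channel gene, at 7.60, 9.77, 10.1 and 9.27 TPM in sham CCD against 4.96, 5.90, 6.57 and 4.67 TPM in sham cTAL. Its difference was 0.61 (SE 0.19, 1.53-fold, limma adjusted p = 0.0459). The call was lost when any 1 of the sham replicates was left out, with limma adjusted p from 0.0704 to 0.146, and without the Umod-rich libraries it was 0.120. Median-of-ratios rescaling and quantile normalization reduced the difference to 0.33 and 0.23 (limma adjusted p = 0.258 and 0.428), and it was not called with either CCD library alone or with no filter. At 30 min the difference of 0.39 was not called (limma adjusted p = 0.101), though it was with CCD library 2 alone (0.0461) and without sham replicate 1 (0.0262). Pkd2 did not differ between the segments beyond the spread, at 0.36 at 30 min (95% interval -0.06 to 0.78) and -0.05 at 3 h (-0.60 to 0.50). The median of all genes tested was 0.30 at both times, and after median-of-ratios rescaling the calls split as 2977 higher and 2854 lower at 30 min, against 4859 and 1541 in the TPM as deposited, and as 1554 and 1775 against 2916 and 1099 at 3 h.

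The low genes were compared in a fit with no filter on low values. There Piezo1 was higher in CCD at 3 h as well, by 0.79 (limma adjusted p = 0.0119), at 1.02, 1.33, 0.78 and 0.61 TPM in sham CCD against 0.32, 0.11, 0 and 0 TPM in sham cTAL. Panx1 was higher in CCD at 30 min, by 0.66 (limma adjusted p = 0.0104), and was not called at 3 h, with a difference of 0.32 (limma adjusted p = 0.155). Pkd1 was not called at either time (0.39 with limma adjusted p = 0.134 at 30 min and 0.11 with 0.396 at 3 h).

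After 3 h of obstruction Trpv4 fell in CCD, and it was the only one of the members called in any comparison of UUO with sham. The sham replicates were at 109.5, 98.5, 88.8 and 93.5 TPM (97.6 ± 8.88, n = 4) and the UUO replicates at 45.6, 39.0, 40.8 and 30.3 TPM (38.9 ± 6.40, n = 4). No UUO replicate reached the lowest sham replicate, nor did the single libraries overlap, with 26.6 to 52.3 TPM in the 8 UUO libraries and 76.5 to 132.9 TPM in the 8 sham libraries. The change was -1.32 on the log2 scale (SE 0.14, 95% interval -1.62 to -1.01), a 2.49-fold lower level, with a limma adjusted p of 0.00218. Trpv4 ranked 13 by p among the 10530 genes tested.

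This was 1 of the 4 members tested, where 13.0% of the genes tested were called, 8.04% as lower, and 14.6% had UUO replicates all below the sham replicates. The median change of all genes was -0.14. The Trpv4 call held under each alternative run, with changes from -1.40 to -1.21 on leaving out single replicates and from -1.34 to -1.18 under the other settings. Without the 3 CCD libraries rich in Umod it was -1.23 (limma adjusted p = 0.00161). Median-of-ratios rescaling moved the split of all calls from 526 higher and 847 lower to 689 and 480.

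Other markers moved in the same libraries. In CCD at 3 h, 5 of 7 principal cell markers fell, with summed levels of 15889 to 18618 TPM in sham and 5489 to 10021 TPM in UUO. Of the intercalated cell markers 1 of 6 fell, and none of the 5 thick limb markers or the 2 endothelial markers tested was called. Of the proximal tubule markers 3 of 6 rose (sums of 129 to 663 TPM in sham and 417 to 2539 TPM in UUO), and 3 of 3 red cell markers rose (16.5 to 884 TPM and 1082 to 5720 TPM). Among macrophage markers 3 of 7 rose, where 5% of all genes were called as higher. The smooth muscle gene Tagln, the 1 of 6 such markers tested, also rose, as did the connecting tubule gene Klk1, 1 of 2 tested in its list. The smooth muscle sums were near the floor in sham, at 0.32 to 5.225 TPM, against 6.465 to 38.7 TPM in UUO. The distal convoluted tubule marker Pvalb was at 0 in all groups. In these bulk samples fewer cells of a type and less RNA per cell cannot be told apart, and the part of cell makeup in the Trpv4 change was not tested.

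**Figure D2:**
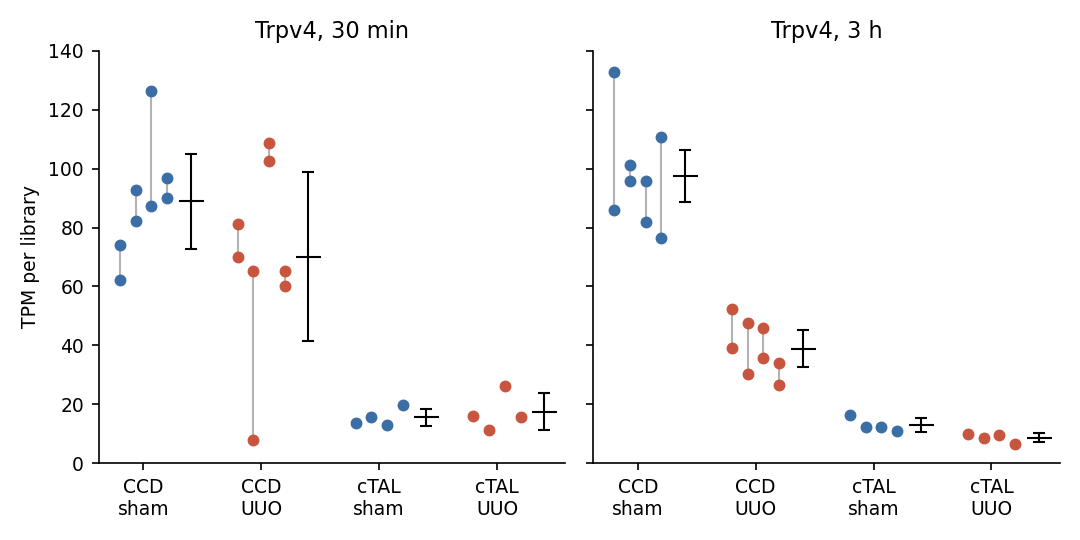
Trpv4 level in TPM in every library, with blue for sham and red for UUO, at 30 min (left) and 3 h (right). Grey lines join the 2 CCD libraries of a number, and black bars give the mean and SD over the 4 replicates of each group. At 3 h the CCD sham libraries sit between 76.5 and 132.9 TPM and the UUO libraries between 26.6 and 52.3 TPM, while at 30 min 1 UUO library at 7.93 TPM widens the spread.

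The other members of CCD at 3 h did not pass the test. Trpm4 was at 7.60, 9.77, 10.1 and 9.27 TPM in sham and at 7.33, 6.23, 7.08 and 5.33 TPM in UUO, with a change of -0.44 (95% interval -0.85 to -0.04, limma adjusted p = 0.134). On the log2 scale used in the fit, where the libraries of a number were averaged, the groups overlapped. Pkd2 changed by -0.10 (95% interval -0.51 to 0.30) and Trpm7 by 0.18 (-0.28 to 0.63). In the fit with no filter Piezo1 had a level of 0.45 ± 0.33 TPM in UUO against 0.93 ± 0.31 TPM in sham (n = 4 each), a change of -0.43 with a limma adjusted p of 0.216. Pkd1, at 0.27 ± 0.11 TPM in sham and 0.47 ± 0.26 TPM in UUO, and Panx1, at 0.43 ± 0.22 and 0.51 ± 0.33 TPM, changed by 0.20 (limma adjusted p = 0.414) and 0.08 (limma adjusted p = 0.801).

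After 30 min of obstruction no member was called in CCD. Trpv4 was at 75.5, 36.5, 106 and 62.7 TPM in UUO against 68.1, 87.4, 107 and 93.5 TPM in sham, and the groups overlapped. Its change was -0.57 (95% interval -1.45 to 0.31, limma adjusted p = 0.423). With number 2 of the UUO group taken from library 1 alone the change was -0.21 (limma adjusted p = 0.568). Trpm4 was at 5.04, 2.49, 7.39 and 4.79 TPM in UUO against 7.24, 6.66, 11.02 and 9.77 TPM in sham, a change of -0.80 (95% interval -1.53 to -0.07, limma adjusted p = 0.294), or -0.57 with library 1 alone for that number.

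None of 5 members was called in CCD at 30 min with limma, where 3 of 11369 genes (0.0264%) were called. At an unadjusted p under 0.05 it was 1 of these 5 members, Trpm4, and 1789 genes, or 15.7%. The median of all genes was -0.31. Piezo1 changed by -0.21, Pkd2 by -0.12 and Trpm7 by -0.23, all within the spread of the replicates, and the changes of Piezo1 under quantile normalization and of Pkd2 and Trpm7 under both rescalings were above 0. The genes below the filter, Pkd1 with 1.08 ± 0.36 TPM in sham rats and 0.62 ± 0.25 TPM after UUO and Panx1 with 0.83 ± 0.43 and 0.32 ± 0.20 TPM (n = 4), were not called in the fit with no filter, with limma adjusted p of 0.513 and 0.470.

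In cTAL no member was called after obstruction at 30 min or 3 h. At 3 h Trpv4 was at 16.5, 12.4, 12.3 and 10.8 TPM in sham (13.0 ± 2.47, n = 4) and at 9.88, 8.60, 9.61 and 6.50 TPM in UUO (8.65 ± 1.53, n = 4). The groups did not overlap, as for 14.1% of genes tested in that direction, and the change was -0.54 (95% interval -1.07 to -0.00, limma adjusted p = 0.174). The highest value came from sham number 1, whose library held Aqp2, and without it the change was -0.42 (limma adjusted p = 0.308). None of 4 members was called by limma at 3 h, where 11.7% of 10023 genes were called, 4.06% as higher and 7.64% as lower. The split of 407 higher and 766 lower was 496 and 430 after median-of-ratios rescaling. In limma 1 member, Trpv4, had an unadjusted p under 0.05, as had 28.4% of genes.

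Trpm4 in cTAL at 3 h was at 4.96, 5.90, 6.57 and 4.67 TPM in sham and at 1.87, 6.50, 5.16 and 4.10 TPM in UUO, a change of -0.35 (95% interval -1.09 to 0.39). Pkd2 changed by -0.15 (-0.79 to 0.49) and Trpm7 by 0.04 (-0.50 to 0.57). At 30 min the changes in cTAL were 0.11 for Trpv4, 0.18 for Pkd2, -0.28 for Trpm4 and -0.02 for Trpm7, each with a limma adjusted p of 1.00. None of these 4 members had an unadjusted p under 0.05, as 2.27% of 10993 genes had, and 0.0091% of genes were called. Trpm7, whose change at 30 min was close to 0, was at 0.05 after median-of-ratios rescaling and 0.04 under quantile normalization. The 3 genes below the filter were not called in cTAL at either time in the fit with no filter, with changes from -0.11 to 0.10. Among markers in cTAL at 3 h, 1 of 6 principal cell, 1 of 5 thick limb, 2 of 4 endothelial and 3 of 7 macrophage markers fell, and 3 of 6 proximal tubule markers rose.

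**Figure D3:**
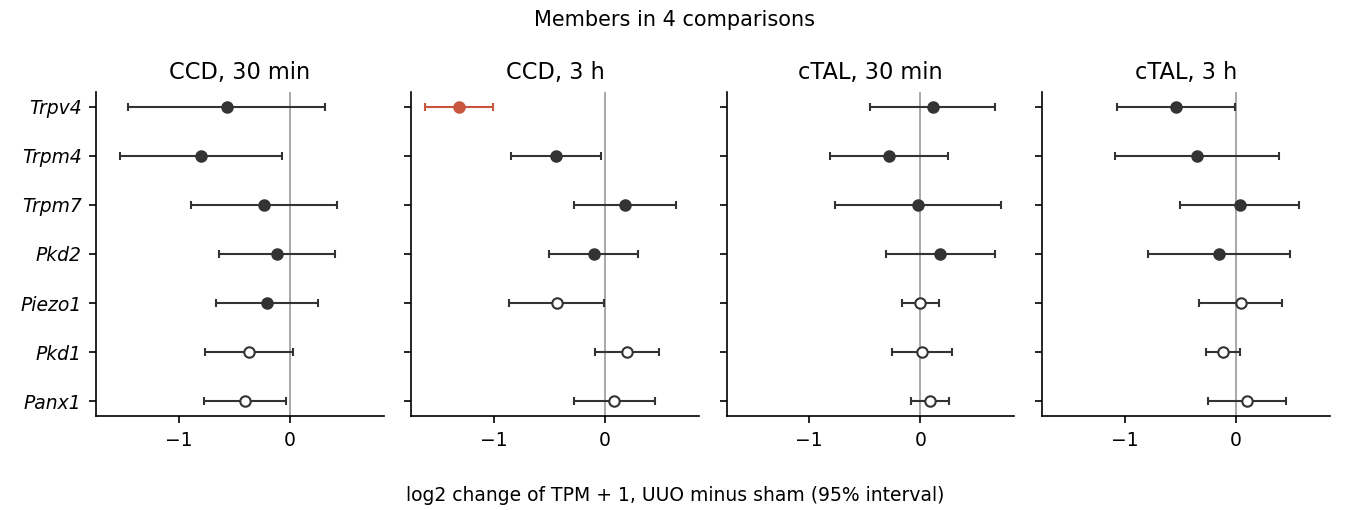
Change of each gene between UUO and sham as the log2 difference of TPM + 1, with 95% intervals from limma, in CCD and cTAL at 30 min and 3 h. Red marks the called change, black points were tested and not called, and open points are genes below the filter, taken from the fit with no filter. Trpv4 in CCD at 3 h, at -1.32, is the only red point.

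The difference between the segments was tested directly. At 3 h the Trpv4 change was -1.32 in CCD and -0.54 in cTAL, a difference of -0.78 (SE 0.19, 95% interval -1.20 to -0.36) that was not called (limma adjusted p = 0.0815, rank 240 of 10281 genes). None of 4 members was called, where 1.16% of genes were, and Trpv4 was the 1 of these 4 with an unadjusted p under 0.05, as 14.5% of genes had. At 30 min the difference for Trpv4 was -0.68 (limma adjusted p = 0.311), or -0.32 with number 2 of the UUO group from library 1 alone. No gene was called by limma at 30 min (0% of 11194), with 14.9% of genes and 1 of 4 members, Trpv4, at an unadjusted p under 0.05. For Pkd2, Trpm4 and Trpm7 the difference between segments ran from -0.52 to -0.21 at 30 min and from -0.09 to 0.14 at 3 h. Piezo1, Pkd1 and Panx1 were not called in the fit with no filter. There Panx1 differed by -0.49 at 30 min (limma adjusted p = 0.269) and Pkd1 by 0.31 at 3 h (limma adjusted p = 0.436).

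The difference between the times was also tested, each change being taken within its own table. In CCD the Trpv4 change was lower at 3 h than at 30 min by 0.75 (SE 0.45, limma adjusted p = 0.421), and none of 5 members was called, where 1.49% of 10940 genes were. This result turned on library 2 of UUO number 2 at 30 min. With library 1 alone for that number, an alternative chosen after seeing the data, the difference was -1.11 (limma adjusted p = 0.0282). Without that replicate it was -1.18 (limma adjusted p = 0.0367), so Trpv4 was called in both. With these fits counted in, Trpv4 was not called in 8 of 10 settings, with differences as small as -0.30, or in 15 of 16 fits that left out 1 replicate. The remaining call was with CCD library 1 alone (-1.20). In cTAL the difference was -0.65 for Trpv4 (limma adjusted p = 0.352), and none of 4 members was called, where 2.32% of 10643 genes were. None of the 5 members tested in CCD or the 4 in cTAL had an unadjusted p under 0.05 in these comparisons, as 16.4% and 16.7% of genes had. In the fit with no filter, Pkd1 in CCD differed by 0.56 between the times, with an unadjusted limma p of 0.0207, and was not called (limma adjusted p = 0.316).

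The ratio of Pkd2 to Pkd1, channel to receptor of the polycystin complex, does not depend on library scaling. In CCD the median ratio of the 4 replicates was 5.78 in sham and 9.58 in UUO at 30 min, and 7.59 in sham and 3.99 in UUO at 3 h. In cTAL it was 6.95 and 7.93 at 30 min and 9.98 and 17.9 at 3 h. The TPM of Pkd2 exceeded that of Pkd1 in every replicate, from 1.56-fold to 89.3-fold. Pkd1 was at 0.02 to 1.74 TPM over the libraries at 30 min and at 0.03 to 1.19 TPM at 3 h. The number of reads behind such levels is unknown. The changes of the log2 ratio were 1.08 and -0.99 in CCD and 0.20 and 0.95 in cTAL, and none passed a two-sided exact permutation test (p = 0.229, 0.2, 0.543 and 0.343, adjusted over the 4 comparisons 0.457, 0.457, 0.543 and 0.457). The smallest p that 4 against 4 replicates allow is 0.0286. The CCD ratio of 38.9 in UUO number 2 at 30 min rested on a Pkd1 value of 0.02 TPM in the sparse library, and with library 1 alone for that number the change was 0.42. Leaving out 1 replicate gave changes from 0.47 to 1.52 in CCD at 30 min, from -1.42 to -0.54 in CCD at 3 h and from 0.23 to 1.51 in cTAL at 3 h. The highest ratio, 89.3, came from a Pkd1 value of 0.03 TPM, and with a pseudocount of 1 the change in cTAL at 3 h was -0.04.

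Genes around these channels were followed in 6 lists. Of 25 other mechanosensitive and TRP channel genes, 11 were tested in CCD at 30 min and 6 at 3 h, and 7 and 4 in cTAL, and none was called after obstruction. Of all genes 0.0264% were called in CCD at 30 min and 13% at 3 h, and 0.0091% and 11.7% in cTAL. With so few channel genes tested, the lack of calls does not set them apart from all genes. The median change of these channel genes in CCD at 3 h was -0.02, beside -0.14 for all genes. Tmem63b, a mechanically gated channel gene, had the smallest p at 3 h in both segments, with changes of -0.37 in CCD (limma adjusted p = 0.217) and -0.41 in cTAL (limma adjusted p = 0.394). The lysosomal channel gene Mcoln1 was at 15.5 TPM in sham CCD and 6.04 TPM in UUO at 30 min, a change of -0.97 that was not called (limma adjusted p = 0.235). None of the 6 other polycystin family genes, Pkd1l1, Pkd1l2, Pkd1l3, Pkd2l1, Pkd2l2 and Pkdrej, reached the filter in any comparison.

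Between the sham segments at 30 min, 5 of 10 other channel genes tested were higher in CCD and 2 lower, near the 41.7% and 13.2% of all genes. Trpv6, an apical calcium channel gene of the distal nephron, had 3.50 TPM in CCD against 0.01 TPM in cTAL, a difference of 2.06 (limma adjusted p = 0.00469 with no filter). Kcnma1, which encodes the large-conductance potassium channel of flow-stimulated potassium secretion, was at 2.52 and 0.17 TPM, a difference of 1.53 (limma adjusted p = 0.00253 with no filter). Both passed the filter through CCD alone. Tmem63a was lower in CCD, by 0.84 (limma adjusted p = 0.000714). At 3 h none of the 4 tested was called, where 38.2% of all genes were. Mcoln1 had the smallest p, with a difference of 0.64 (limma adjusted p = 0.129).

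Among 15 genes of polycystin maturation and cystic disease, 13 were tested in each segment at 3 h, with a median change of -0.26 in CCD and -0.37 in cTAL. In cTAL none of 13 was called, where 11.7% of all genes were, and Nek8 had the smallest p with a change of -0.79 (limma adjusted p = 0.0811). Of 17 cilium genes tested in CCD at 3 h, Cep290, a protein of the ciliary transition zone, fell by 0.68 on the log2 scale from 1.60 to 0.64 TPM (limma adjusted p = 0.0394 with no filter, the gene having passed the filter through sham alone). Of 13 in cTAL Ift46, an intraflagellar transport subunit, fell by 0.64 from 40.8 to 26.0 TPM (limma adjusted p = 0.0375). Cep290 lost the call in 7 of 13 alternatives, among them the fit without the Umod-rich libraries (limma adjusted p = 0.0601). Ift46 lost it in 10 of 13, among them both rescalings (0.130 and 0.101). These calls, 1 of 17 in CCD and 1 of 13 in cTAL, stand beside 8.04% and 7.64% of all genes called as lower. The medians of the cilium list were -0.27 and -0.31.

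Between the sham segments 8 of 15 genes of maturation and cystic disease were higher in CCD at 30 min and 1 lower, beside 41.7% and 13.2% of all genes, and 4 of 14 were higher at 3 h, beside 27.7%. Prkcsh, the glucosidase II beta subunit that processes polycystin-1, had a level of 96.0 TPM in CCD against 52.8 TPM in cTAL at 30 min, a difference of 0.85 (limma adjusted p = 0.000436). At 3 h Prkcsh differed by 0.63 (limma adjusted p = 0.0115) and Sec63, a component of the protein import machinery of the endoplasmic reticulum, by 1.12 (limma adjusted p = 0.0276), while Dnajb11 and Ganab were the others called. All 4 calls were lost under median-of-ratios rescaling (limma adjusted p from 0.0751 to 0.440) and quantile normalization (0.0994 to 0.187), and that of Sec63 without the Umod-rich libraries (0.0733). The list medians were 0.46 and 0.36, beside 0.30 for all genes.

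The ATP release and purinergic list bears on Panx1. In CCD at 3 h, 1 of 9 genes tested rose and 2 fell, where 5% of all genes rose and 8.04% fell. Gjb2, the connexin-26 gene, was at 0.23 TPM in sham and 3.23 TPM in UUO, a change of 1.55 (limma adjusted p = 0.0415 with no filter, the gene having passed the filter through UUO alone). Gjb1, the connexin-32 gene, fell by 0.86 on the log2 scale from 45.6 to 25.4 TPM (limma adjusted p = 0.0198), and Nt5e, the ectonucleotidase that makes adenosine, fell by 0.75 from 17.6 to 9.95 TPM (limma adjusted p = 0.0265). Nt5e lost the call in 11 of 17 alternatives, among them both rescalings and the fit without the Umod-rich libraries (limma adjusted p = 0.0616), Gjb1 in 5 of 17 and Gjb2 in 2 of 12. In cTAL 1 of 10 fell, where 7.64% of all genes did. Entpd2, an ATP-hydrolysing surface enzyme, fell by 0.55 from 314 to 211 TPM (limma adjusted p = 0.0491), a call lost in 12 of 13 alternatives. In sham at 30 min all 11 tested were called between segments, 8 higher in CCD and 3 lower. Of all genes 54.9% were called, 41.7% as higher and 13.2% as lower. Entpd2 was at 7.02 TPM in CCD against 259 TPM in cTAL (a difference of -4.99, limma adjusted p = 2.64e-06). Nt5e, at 27.0 and 0.68 TPM, passed the filter through CCD alone and so had to differ. With no filter its difference was 4.06 (limma adjusted p = 0.000528).

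In the list of calcium stores, pumps and the calcineurin response, Rcan1 rose in both segments at 3 h. It encodes an inhibitor of calcineurin whose transcription calcineurin and NFAT are known to raise. In cTAL Rcan1 was at 4.44, 6.72, 4.91 and 5.34 TPM in sham and 27.0, 66.8, 75.3 and 83.5 TPM in UUO, a change of 3.23 (SE 0.34, limma adjusted p = 0.00106). In CCD it was at 30.3, 26.6, 29.2 and 39.2 TPM in sham and 56.0, 64.2, 92.2 and 100.3 TPM in UUO, a change of 1.26 (SE 0.20, limma adjusted p = 0.00833). Both calls held in every alternative run. Rcan1 was the 1 gene called of 19 tested in CCD and of 17 in cTAL. Of all genes 5% were called as higher in CCD and 4.06% in cTAL. Rcan1 was called in the difference between segments at 3 h, at -1.97 (limma adjusted p = 0.0155), and in the difference between times, at 1.76 in CCD (limma adjusted p = 0.0231) and 2.65 in cTAL (limma adjusted p = 0.0195). The call for the segments was lost in 3 of 17 alternatives and that for the times in CCD in 6 of 26. That for the times in cTAL was lost in 1 of 21, the fit with the replicate block (limma adjusted p = 0.0864).

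The other genes of that list, 18 of 19 tested in CCD and 16 of 17 in cTAL at 3 h, were not called, and the list medians were -0.11 and -0.09. In sham at 30 min 13 of 21 were higher in CCD and 2 lower, beside 41.7% and 13.2% of all genes, a split that rescaling changed. The store-operated entry sensor genes Stim1 (18.8 and 2.15 TPM, a difference of 2.72, limma adjusted p = 7.25e-05) and Stim2 (15.2 and 1.01 TPM, 2.99, limma adjusted p = 1.89e-05) and the inositol trisphosphate receptor gene Itpr2 (44.96 and 1.66 TPM, 4.10, limma adjusted p = 5.81e-06) were among those higher in CCD. Stim2 lay near the filter limit of 1 TPM in cTAL, and with no filter its limma adjusted p was 0.000581. In all 6 lists no gene was called after 30 min of obstruction in CCD or cTAL, where 0.0264% and 0.0091% of all genes were.

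Genes of like pattern were named by the highest mean of the Pearson correlations of log2(TPM + 1) over the 16 replicates at 30 min and the 16 at 3 h, among 6294 genes. The points share libraries, and CCD and cTAL form separate clusters, so these are descriptions. Trpv4 was most like Avpr2, the vasopressin V2 receptor gene, with r of 0.96 and 0.98, then Shisa5 and Anxa9. Avpr2 was at 653 to 860 TPM in sham CCD and 128 to 329 TPM in UUO CCD at 3 h, a change of -1.76 (limma adjusted p = 0.00762), and fell by 1.51 in cTAL, where Trpv4 changed by -0.54 without being called. Anxa9 changed by -1.90 in CCD at 3 h (limma adjusted p = 0.00807). Shisa5 changed by -0.33 in CCD at 3 h without being called (limma adjusted p = 0.0609), and by -0.43 in cTAL, where it was called (limma adjusted p = 0.0316). A high correlation over both segments thus did not fix the size of the change after obstruction.

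**Figure D4:**
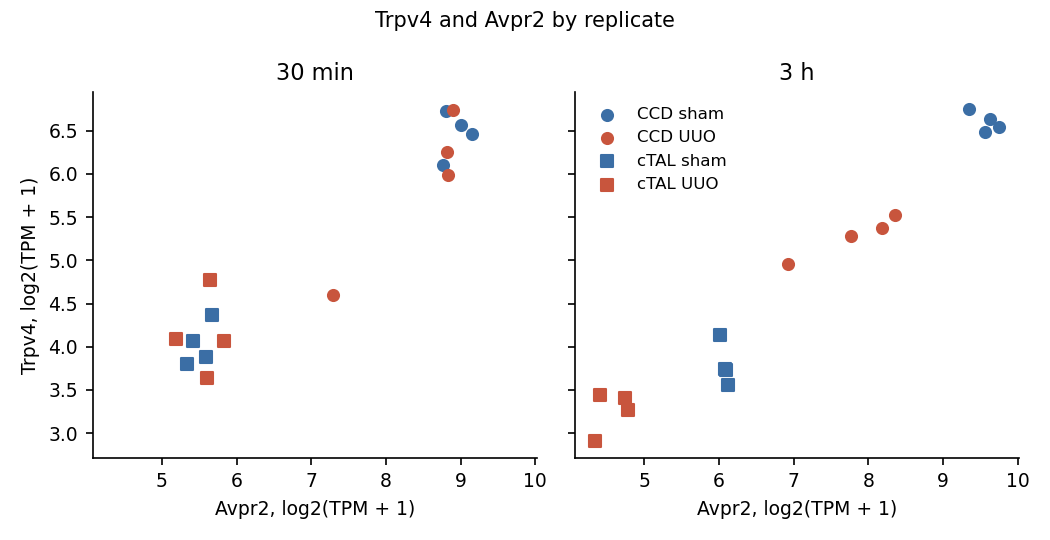
Trpv4 against Avpr2 in each replicate, both as log2(TPM + 1), at 30 min (left) and 3 h (right), with circles for CCD, squares for cTAL, blue for sham and red for UUO. At 3 h the CCD UUO replicates lie below the CCD sham replicates on both axes, and at 30 min the UUO replicate with the sparse library lies apart from the other CCD replicates.

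Piezo1 was most like Kitlg (mean r 0.90), which encodes the ligand of the receptor KIT, then Grpel2 and Slc35g2. Trpm4 was most like Rap1gap (0.91), a GTPase activator of RAP1, then Rhot2 and Dbnl, and Trpm7 most like Itga1 (0.86), the integrin alpha-1 gene, then Phldb2 and Plxdc2. Pkd1 was most like Nectin2 (0.83), a cell adhesion gene, then Cd44 and Lims1, and Panx1 most like Ubqln1 (0.79), then Memo1 and Wsb1. Pkd2 had the weakest best match, S100a13 at 0.62, then Rpl5 and Scnm1.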

How the data were processed

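RNA of microdissected CCD and cTAL was turned into amplified cDNA and libraries, per the labels' protocols. The authors deposited TPM, a length-scaled relative abundance, per gene and library in a table per time, and per the submitters' processing notes the tools were STAR 2.7.3 and RSEM 1.3.3 with Rnor_6.0. TPM hold no counts, so depth is unknown and no count test was run. For CCD the mean log2(TPM + 1) of both libraries was taken per number. Genes at 1 TPM or more in at least 4 of 8 replicates (8 of 16 where 16 entered) were fitted with limma 3.58.1 (R 4.3.3, trend) with Benjamini-Hochberg adjustment over all genes tested. TPM are relative to each library's total, so a rise of abundant transcripts lowers the rest. Fits were tested on simulated data. Figures used matplotlib 3.10.9.

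The 8 genes, lists and alternatives were chosen with earlier results of these data known. All members were named; for each list, up to 4 called genes with the smallest adjusted p per comparison, or failing any call the one of smallest p, could be named; and the 3 genes of highest mean correlation per member, among genes averaging 5 TPM or more. In the lists 160 of 162 symbols matched, and the calls of 1 list in CCD at 3 h are not reported here. Same-numbered CCD and cTAL were taken as 1 animal, which the labels do not state; their deviations correlated at 0.271 to 0.392 in sham at 30 min and at 0.0617 to 0.210 at 3 h. Sham and UUO of the same number correlated above 0.1 for all 4 numbers in CCD at 30 min (0.115 to 0.229) and not in the other groups, which share only a number.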

Additional observations from a re-analysis of the deposited data

Results flagged for a closer look

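In 6 of 56 groups of 4 replicates 1 replicate stood far from the others, its gap to the nearest exceeding Dixon's critical share of the range; chance gives about 1 in 20 such groups. The gap was 0.9555 of the range for Piezo1 in CCD sham at 30 min (replicate 3 highest), 0.9091 for Trpm7 in CCD UUO at 3 h (replicate 4 highest) and 0.873 for Pkd2 in CCD sham at 3 h (replicate 2 highest). In cTAL it was 0.8708 for Piezo1 in UUO at 3 h (replicate 4 highest), 0.846 for Panx1 in sham at 3 h (replicate 2 highest) and 0.8324 for Panx1 in UUO at 30 min (replicate 2 lowest). The cTAL values of Piezo1 and Panx1 were all below 1 TPM.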

How the results depend on the processing

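Trpv4 kept its call in CCD after 3 h of obstruction and in CCD against cTAL at both times under all alternatives run. For the members tested, 298 of 338 values under other settings and 338 of 376 values on leaving out a replicate kept direction and side of the threshold. The number of members called between sham segments at 3 h was 1 with CCD library 1 alone and 1 on leaving out any replicate, and at 30 min 1 to 2 on leaving out a replicate, since Piezo1 then passed the filter in too few replicates and Trpm7 lost its call in 2 of 4 fits. With CCD library 1 alone at 3 h, Trpm4 lost its call, while under both rescalings, library 2 alone and without the Umod-rich libraries Trpm4 lost and Trpm7 gained one. For the difference between times in CCD it was 1 with CCD library 1 alone (Trpv4, -1.20), 1 with number 2 of UUO from its library 1, an alternative chosen after seeing the data, and 0 to 1 on leaving out a replicate. With the replicate block 0 members were called in CCD at 30 min, 1 in CCD at 3 h and 0 in cTAL, as without it, and without the replicate block 2 were called between sham segments at 30 min and 3 at 3 h; the block changed no other member's call.

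Small changes turned sign, none of them called. After obstruction in CCD at 30 min these were Pkd2 (0.20 after median-of-ratios rescaling, 0.32 after quantile normalization), Trpm7 (0.059, 0.20) and Piezo1 (0.093, quantile); on leaving out a replicate Pkd2 ran from -0.25 to 0.037 and Trpm7 from -0.40 to 0.0055. In CCD at 3 h Trpm7 was -0.044 with library 1 and Pkd2 0.012 with library 2 alone. In cTAL at 30 min Trpm7 was 0.055 and 0.036 (rescalings) and ran from -0.22 to 0.27, and Trpv4 from -0.10 to 0.28; at 3 h Trpm7 ran from -0.013 to 0.12. Between sham segments Pkd2 was -0.045 and Trpm4 -0.036 at 30 min (quantile), and Pkd2 ran from -0.24 to 0.033 at 3 h. For the segments' difference at 30 min Trpm7 was 0.0047 (median-of-ratios), 0.16 (quantile) and 0.00450 (library 1) and Pkd2 0.10 (quantile). At 3 h Pkd2, Trpm4 and Trpm7 were -0.068, 0.080 and -0.080 with library 1, Trpm4 0.056 without the Umod-rich libraries, and Pkd2 ran from -0.14 to 0.24 and Trpm4 from -0.43 to 0.12. For the times in CCD Pkd2 was -0.028 (pseudocount 0.1), -0.22 and -0.42 (rescalings), running from -0.14 to 0.14, and Trpm7 -0.016 (quantile) and -0.027 (library 1). For the times in cTAL Trpm4 ran from -0.25 to 0.21 and Trpm7 from -0.23 to 0.25. The Pkd2 to Pkd1 ratio in cTAL at 3 h changed by -0.0399 with a pseudocount of 1. The cause of these turns was not tested.

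Over all genes the calls in CCD at 30 min went from 3 to 956 with library 1 alone, 37 with averaging on the TPM scale and 1 with library 2 alone (1 to 2 on leaving out a replicate). In CCD at 3 h they went from 1373 to 676 and 490 with library 1 or 2 alone, 852 with no filter and 770 with the replicate block (458 to 1596), and in cTAL at 3 h from 1173 to 760 with no filter and 580 with the block (439 to 988). For the segments' difference they went from 0 to 729 with library 1 alone and 319 with averaging on the TPM scale and 134 with number 2 of UUO from library 1 at 30 min (0 to 658), and from 119 to 73 with pseudocount 0.1, 55 with library 2 alone, 20 with no filter and 76 with no replicate block at 3 h (18 to 102). For the times in CCD they went from 163 to 70 with pseudocount 0.1, 20 with library 2 alone, 35 with no filter and 286 with number 2 of UUO from library 1 (28 to 210), in cTAL from 247 to 84 with the block, and between sham segments at 3 h from 4015 to between 2218 and 3073 on leaving out a replicate. Median-of-ratios rescaling moved the median of all genes from -0.31 to -0.02 in CCD at 30 min and from 0.30 to -0.02 between sham segments at 30 min and to 0.02 at 3 h. Levels below about 1 TPM (Pkd1, Panx1 and, in cTAL, Piezo1) have no known number of reads behind them.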
